A study of Mus musculus with 65 samples.

Results

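The genes described are 8 entries that are named together as interferon-induced: Xaf1, Trim30a, Eif2ak2, Irgm1, Igtp, Irf1 and Irf7, with Gm6548 taken in because its annotated locus lies inside that of Eif2ak2. They were found in the deposited table by their NCBI gene identifiers, and all 8 of them were among its 18036 identifiers and among the 6826 with a value above 0 in any cell. Their values were read in 65 single long-term hematopoietic stem cells from the bone marrow of mice older than 20 months. The mice were double heterozygous for an SCL-driven tetracycline transactivator and an H2B-GFP histone reporter, so cells of both groups carry both transgenes, and the label can be seen only in cells in which the SCL promoter was once active. The label is diluted by cell division: 37 of the cells had retained it (LR cells, sorted as GFP positive) and 28 had not (nLR cells, sorted as GFP negative). Biological repeats 1 to 4 hold 9, 9, 10 and 9 LR cells and 8, 4, 6 and 10 nLR cells. The sort for both took LSK cells with CD150 and without CD48, Flk2 or more than low CD34, and all cells spent a night without growth factors at low oxygen before lysis.

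Interferons bind receptors that signal through JAK kinases and STAT factors, and STAT complexes and IRF factors then switch on many genes that restrain viruses and other intracellular microbes. Type I interferons act mainly through a DNA element called ISRE and interferon gamma mainly through one called GAS. In the bone marrow interferons are known to drive quiescent stem cells into division, and mouse stem cells that lack Irgm1 divide too much, so these genes are of interest in cells told apart by their history of division.

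Eif2ak2 encodes PKR, a kinase that binds double-stranded RNA and then halts translation by phosphorylating eIF2alpha. Xaf1 encodes a partner of the apoptosis inhibitor XIAP that counteracts it. Trim30a is a mouse TRIM-family ubiquitin ligase gene that dampens signalling from Toll-like receptors. Irgm1 and Igtp encode immunity-related GTPases that act on the vacuoles of intracellular microbes, Irf1 a transcription factor induced by interferon gamma, and Irf7 the factor that amplifies production of type I interferons. In RefSeq for GRCm38.p6, the reference form of mm10, Xaf1 (identifier 327959) lies on chromosome 11 from 72301461 to 72313733, Igtp (16145) from 58199556 to 58207592, Irf1 (16362) from 53770014 to 53778374 and Irgm1 (15944) from 48865245 to 48871420 of the same chromosome. Trim30a (20128) lies on chromosome 7 from 104409025 to 104465193 and Irf7 (54123) on that chromosome from 141263183 to 141266499. Eif2ak2 (19106) lies on chromosome 17 from 78850504 to 78882572. One value was deposited for each gene as a whole.

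Since ISRE and GAS are the elements through which interferon acts, their matches are shown for the members in which they lie before the start of the gene. ISRE was searched as GAAANNGAAA and GAS as TTCNNNGAA, each on both strands. The RefSeq windows (GRCm38.p6) searched run from 250 bases before to 50 after a listed start of each gene. Windows were listed for 7 of the 8 genes. The first 3 stretches have the ISRE match in capitals. It starts 36 bases before the start of Trim30a (chr7:104465200-104465249, minus strand, the match itself reading on the other strand) and 34 bases before that of Igtp (chr11:58199502-58199551, plus strand). Irgm1 holds 2 overlapping matches, at 30 and 24 bases before its start (chr11:48871421-48871470, minus strand).
Trim30a: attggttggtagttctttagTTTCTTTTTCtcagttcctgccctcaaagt
Irgm1: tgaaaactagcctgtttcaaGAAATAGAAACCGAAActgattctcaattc
Igtp: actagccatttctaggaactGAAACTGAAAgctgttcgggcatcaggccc

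The next 3 have the GAS match in capitals, at 90 bases before the start of Irf1 (chr11:53769904-53769952, plus strand), 45 before that of Igtp (chr11:58199491-58199539, plus strand), next to and not overlapping its ISRE match, and 178 before that of Eif2ak2 (chr17:78882722-78882770, minus strand).
Irf1: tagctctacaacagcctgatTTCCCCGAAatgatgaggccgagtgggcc
Igtp: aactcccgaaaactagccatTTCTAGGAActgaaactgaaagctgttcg
Eif2ak2: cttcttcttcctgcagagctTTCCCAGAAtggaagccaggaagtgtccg

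Eif2ak2 also holds an ISRE match 18 bases after its start, and a second RefSeq start of Trim30a has one 2 bases after it. No match to either was found in the windows of Xaf1 (72301379 to 72301678) and Irf7 (141266375 to 141266674). Both windows are set on starts inside the gene spans given above. The bases before the outer starts of Xaf1 and Irf7 were therefore searched only in part. Of all 32851 RefSeq windows 3.44% hold the ISRE letters and 8.30% the GAS letters. A match is a description of the letters and says nothing of binding in these cells.

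Depth differed between cells and repeats. Totals ran from 27954 to 20516069 counts per LR cell (median 264894) and from 86 to 661078 per nLR cell (median 118056), and 0 LR and 4 nLR cells held under 10000. By repeat the median total was higher in LR cells in repeats 1 and 2 and in nLR cells in repeats 3 (201268 LR, 271753 nLR) and 4 (164961 LR, 201757 nLR). The median number of genes with a value was higher in LR cells in all 4 repeats, at 1258 to 2573 in LR and 764 to 1377 in nLR repeats. Some libraries were also nearly the same as another one. Over log2(CPM + 1) values, CPM being counts scaled to an equal total in every cell, the median correlation of the 2080 pairs of cells was 0.24, but LR cells 20, 21 and 22 of repeat 3 correlated at 0.93 to 0.97 and shared 91.9 to 93.9% of the genes found in the one with fewer genes. In all, 11 pairs reached 0.70. Of these, 9 lay in the same repeat and group and carried the same i5 index, among them nLR cells 11 and 12 of repeat 2 (0.73) and 13 and 14 of repeat 3 (0.85). Across the groups, LR cell 3 and nLR cell 3 of repeat 1 correlated at 0.91. Whether such cells share material was not tested. Results that rest most on them are also given with only the deepest cell of each alike set, which leaves 32 LR and 25 nLR cells. Of 15 stem cell markers listed, 9 were in the table. Hlf had a value in 31 of 37 LR cells and 12 of 28 nLR cells, Gata2 in 24 and 10 and Meis1 in 24 and 12. Hoxa9 had one in only 5 and 0 cells, Hoxb5 in 2 and 0 and Fgd5 in 1 and 1. Slamf1, the gene of the sorted marker CD150, was at 0 in all cells, as were Flt3 and Cd48, whose proteins the sort selected against. LR cell 16 stood out by B cell markers (50330 counts of Cd74, 19625 of Cd79a and 7131 of Cd79b), with 8.00 counts of Gm6548, 5.00 of Eif2ak2, 0.50 of Trim30a and 0 of the other 5 genes. Of markers of other cell types, the 5 plasmacytoid and dendritic ones in the table took 0.0297 to 0.0620% of the counts of the LR repeats and 0.000499 to 0.00718% of the nLR repeats. Only 3 of these 5 had a value, and Tcf4 (up to 5616 counts in a cell, against 35.8 for Siglech and 185 for Ccr9) led the sum. These LR and nLR ranges did not overlap. How many of all genes lay without overlap was not counted, so this is not shown to be particular to these markers. Of all genes tested for detection below, 93.4% had the higher mean share in LR cells. The 6 megakaryocyte markers took 0.0246 to 0.346% and 0.000161 to 0.0569%, the 6 monocyte and macrophage markers 0.000521 to 0.0104% and 0.000097 to 0.00217% with Csf1r and Adgre1 at 0, and the 4 erythroid markers 0.00389 to 7.38% and 0.239 to 2.39%, all 3 with overlap. The ranges of the B, T and NK, neutrophil and endothelial markers overlapped as well. The part of these markers in the results was not tested.

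Detection of the interferon-induced genes was patchy in both groups. A gene was called detected in a cell where its value was above 0, and the share of cells was compared over the 4 repeats of each group with a two-sided exact permutation test, whose smallest possible p is 0.0286. Trim30a was found in 5, 5, 5 and 3 cells of LR repeats 1 to 4 and in 3, 1, 0 and 1 cells of the nLR repeats. Xaf1 was found in 5, 6, 7 and 4 LR cells and in 1, 0, 5 and 4 nLR cells. Igtp was found in 3, 2, 5 and 4 LR and in 0, 2, 0 and 1 nLR cells. The higher share lay in LR cells in 4 of 4 repeats for Trim30a and in 3 of 4 for Xaf1 and Igtp, and for each of them the ranges of the groups overlapped.

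Trim30a reached a mean share of 48.6% ± 10.5 in LR and 18.1% ± 16.5 in nLR cells (SD, n = 4 repeats each, exact permutation p = 0.0571, adjusted 0.377 over all genes). For Xaf1 the shares were 59.2% ± 11.6 and 34.0% ± 36.9 (exact permutation p = 0.257), with 83.3% of nLR repeat 3 and 0% of repeat 2. For Igtp they were 37.5% ± 12.3 and 15.0% ± 23.8 (exact permutation p = 0.171). Single repeats mattered: without nLR repeat 3 the difference of Xaf1 was 41.7 points, and without nLR repeat 1 that of Trim30a was 36.9 points (exact permutation p = 0.0286 for both, the smallest possible, adjusted 0.313 and 0.349). None of these differences passed the adjustment.

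Eif2ak2, Gm6548, Irgm1 and Irf1 differed less. Eif2ak2 was found in 3, 5, 4 and 4 LR cells and in 3, 3, 1 and 1 nLR cells, a mean share of 43.3% ± 9.34 and 34.8% ± 29.3 (exact permutation p = 0.629). Gm6548 was the most widely found of the 8 in both groups, in 7, 9, 3 and 6 LR and in 6, 2, 2 and 5 nLR cells. Its mean shares were 68.6% ± 29.2 and 52.1% ± 17.2 (exact permutation p = 0.400). Irgm1 was found in 5, 6, 4 and 4 LR and in 4, 2, 3 and 2 nLR cells (51.7% ± 11.9 and 42.5% ± 15.0, exact permutation p = 0.486). For Irf1, found in 4, 3, 0 and 2 LR and in 0, 3, 0 and 1 nLR cells, the shares were 25.0% ± 19.0 and 21.3% ± 36.1 (exact permutation p = 0.914). Irf7 had a single count in LR cell 6 and was at 0 in the 28 nLR cells, which allows a share of cells with a count of up to 10.7%, and it was too rare to test.

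Of the 7 genes with a value in at least 10 cells, 0 passed an unadjusted p of 0.05 in either direction. Of all 3489 genes tested in this way, 296 (8.48%) were higher at that threshold in LR cells and 0 (0%) lower, and no gene passed after Benjamini-Hochberg adjustment (smallest adjusted p 0.337). All 7 had the higher mean share in LR cells, as had 93.4% of all genes tested, so the direction is that of the table as a whole. Their differences ran from 3.75 points for Irf1 to 30.5 points for Trim30a, beside a median of 19.4 points over all genes, and Xaf1, Trim30a and Igtp lay above that median and the other 4 below it. With 1 cell of each alike set the difference of Trim30a was 25.7 points (exact permutation p = 0.143), that of Xaf1 23.6 points (exact permutation p = 0.257) and that of Igtp 22.9 points (exact permutation p = 0.114).

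**Figure D1:**
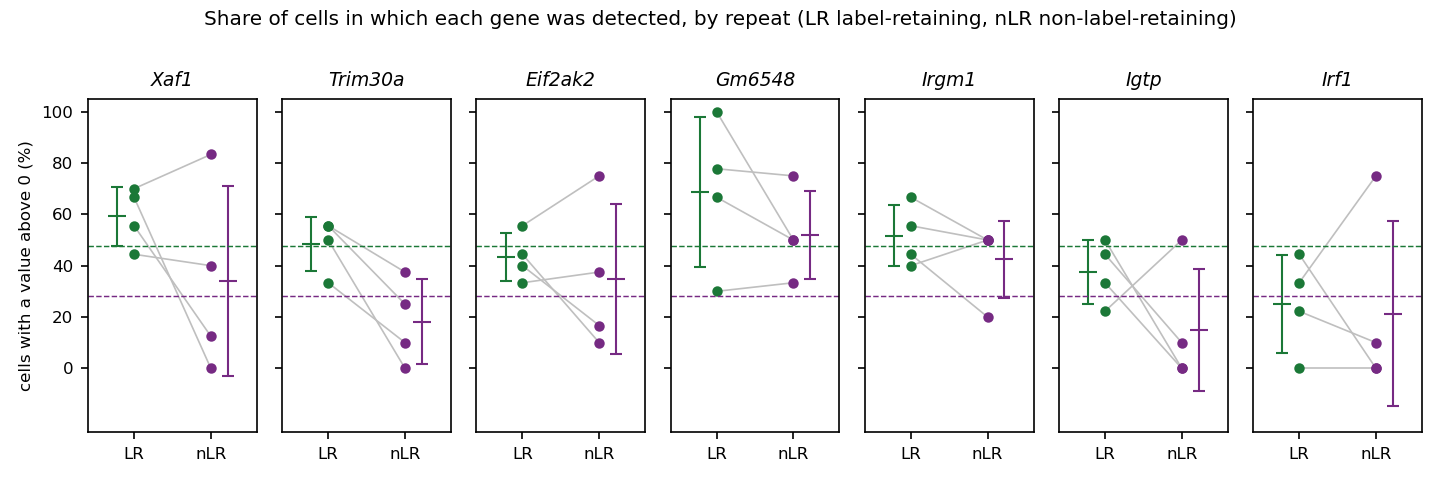
Share of cells (percent, vertical axis) with a value above 0 for 7 of the genes, 1 point per biological repeat, with LR cells (LR, green) left of nLR cells (nLR, purple), grey lines joining repeats of the same number, and mean ± SD beside the points. Dashed lines mark the mean share over all 3489 genes tested, 47.5% in LR and 28.1% in nLR cells, and the 2 groups overlap in every panel.

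Thinning each cell to 10000 counts, which equalises total counts but not the number of different molecules in a library and leaves out the 4 shallow cells, changed the order of the genes. The expected share of cells that keep a count was then 23.2% ± 14.3 in LR and 11.1% ± 15.3 in nLR cells for Trim30a, and 15.8% ± 13.5 and 8.55% ± 17.1 for Igtp (SD, n = 4). For Gm6548 it was 12.7% ± 10.4 and 33.7% ± 29.0, a difference of -21.1 points (exact permutation p = 0.257), at percentile 0.430 of the differences of all genes. Eif2ak2 likewise stood at 17.1% ± 14.1 and 26.6% ± 33.9, a difference of -9.56 points. Xaf1 kept 2.85 points, and Irgm1 (-3.40 points) and Irf1 (-2.65 points) lay slightly on the other side. After thinning, 75.5% of all genes still had the higher share in LR cells (mean share 22.3% in LR and 15.2% in nLR cells), with a median of 6.32 points, and none of the 7 differences was past 0.05.

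At a threshold of 10 counts, Irgm1, Igtp and Irf1 reached it in LR cells and in no nLR cell. It was reached by Irgm1 in 6 LR cells, by Igtp in 7 and by Irf1 in 3, and by each of them in 0 of 28 nLR cells. The highest nLR values of these genes were 8.00 counts of Irgm1, 5.50 of Igtp and 3.00 of Irf1, where the highest LR values were 4414, 2440 and 4638. By repeat the shares at 10 or more were 16.7% ± 21.3, 18.3% ± 17.1 and 8.33% ± 10.6 in LR cells against 0% in each nLR repeat (exact permutation p = 0.429, 0.143 and 0.429). The differences of 16.7, 18.3 and 8.33 points stand beside a median of 15.5 points over all genes at that threshold. The mean share of all genes tested was there 25.0% in LR and 8.32% in nLR cells. How many of all genes reached 10 counts in no nLR cell was not counted, so the absence is not shown to be particular to these genes. The threshold is not scaled to depth. LR cell 18, counted as high, held 20.1 CPM of Irgm1, 27.6 of Igtp and 38.7 of Irf1, while nLR cell 12, a shallow library with 4.00, 2.00 and 2.00 counts of them, held 147, 73.3 and 73.3 CPM. Xaf1, Trim30a, Eif2ak2 and Gm6548 reached 10 or more in 8, 9, 10 and 10 LR cells and in 4, 3, 3 and 7 nLR cells.

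**Figure D2:**
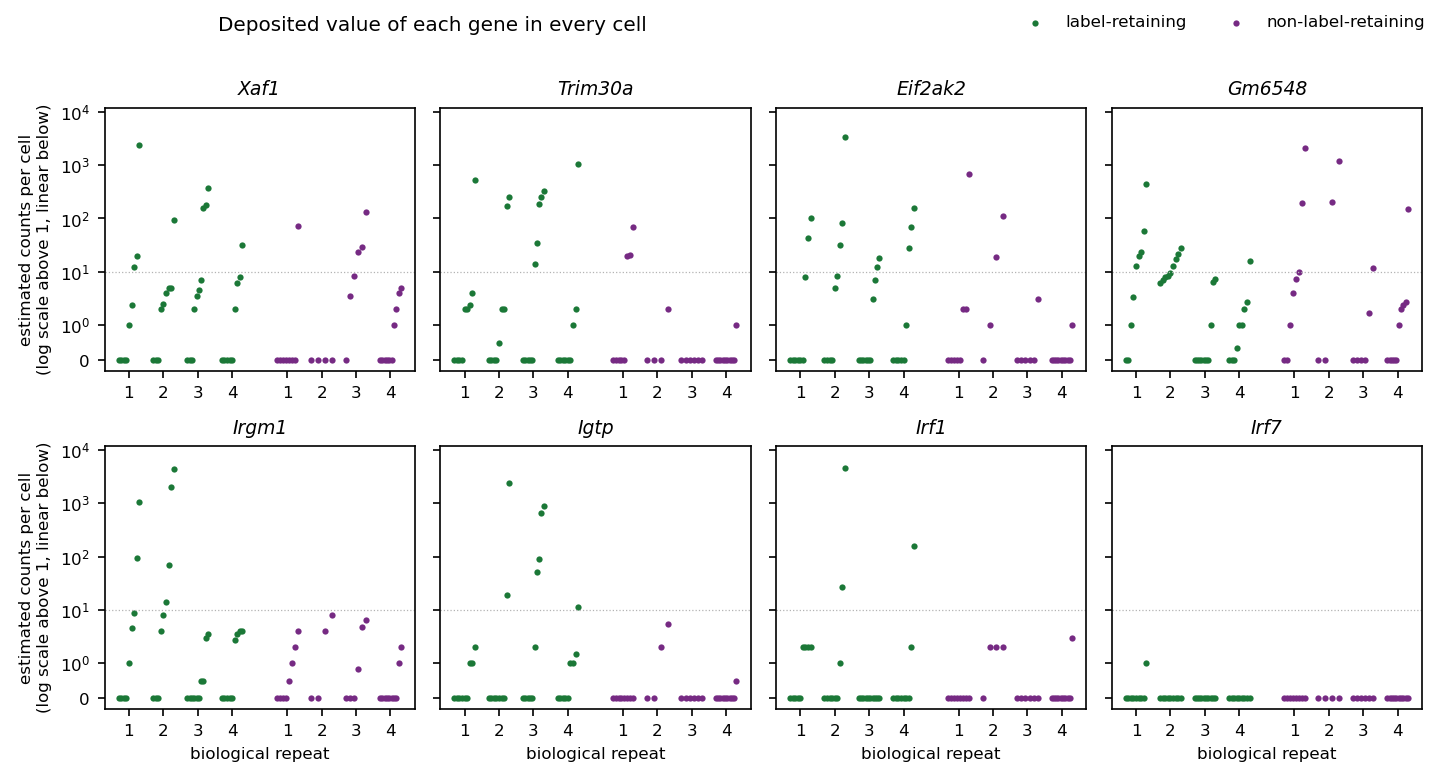
Deposited value of each of the 8 genes in every cell (vertical axis, estimated counts, log scale above 1 and linear below), with the 4 LR repeats (green) left of the 4 nLR repeats (purple). Within a repeat the cells are ordered by value and the dotted line marks 10 counts, above which no nLR cell lies for Irgm1, Igtp, Irf1 or Irf7.

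A single cell carried from 37.4% (Trim30a) to 96.0% (Irf1) of the LR counts of each of the 7 genes. LR cell 17 of repeat 2 held 4414 counts of Irgm1, 2440 of Igtp, 4638 of Irf1 and 172 of Trim30a. It was the highest cell for the first 3 of these and held 57.0% of the LR counts of Irgm1 and 58.1% of those of Igtp, and it was also the highest cell for the stem cell marker Hlf, with 11027 counts. LR cell 7 of repeat 1 held 2377 counts of Xaf1, 538 of Trim30a, 104 of Eif2ak2 and 96.0 of Irgm1, with 0 of Igtp and Irf1. LR cell 36 of repeat 4 held 1077 counts of Trim30a, 159 of Eif2ak2 and 31.3 of Xaf1. These cells thus joined different members at high values.

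The alike cells 20, 21 and 22 of LR repeat 3 each held Xaf1 (177, 368 and 161 counts), Trim30a (254, 325 and 188) and Igtp (51.0, 904 and 91.0), and had 0 counts of Irf1. They were 3 of the 4 LR cells in which these 3 genes all reached 10 or more. The other was cell 36, with 11.5 counts of Igtp. Cell 12 of repeat 2 held 2031 counts of Irgm1 with 0 of Xaf1, Igtp and Irf1, and cell 14 of that repeat 3454 counts of Eif2ak2. Among nLR cells, cell 7 of repeat 1 joined 2119 counts of Gm6548 to 692 of Eif2ak2, and the alike cells 11 and 12 of repeat 2 joined 1218 to 110 and 204 to 19.0.

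More of the genes were found per cell in LR cells as deposited, and not after thinning. Per cell, a mean of 3.37 ± 0.56 of the 8 genes was detected in LR and 2.18 ± 0.76 in nLR cells (SD, n = 4 repeats), and over single cells the medians were 3 (0 to 7) and 2 (0 to 5). Cells with 3 or more of them numbered 25 of 37 and 10 of 28, and cells with 5 or more 12 and 2. The number followed the number of all genes found in a cell, with a Spearman correlation of 0.76 over the 37 LR and 0.69 over the 28 nLR cells, which share library and depth on both axes. With total counts the correlation was 0.55 over LR and 0.23 over nLR cells. After thinning the means were 1.14 ± 0.33 and 1.28 ± 1.04. At 10 or more counts, 8 LR and 0 nLR cells held 3 or more of the genes, and 6 and 0 with 1 cell of each alike set. The mean share of cells over all genes tested was 47.5% in LR and 28.1% in nLR cells as deposited. At 10 or more counts it was 25.0% and 8.32%, so the direction is again that of the table as a whole. How many cells other sets of 8 genes would give was not counted.

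**Figure D3:**
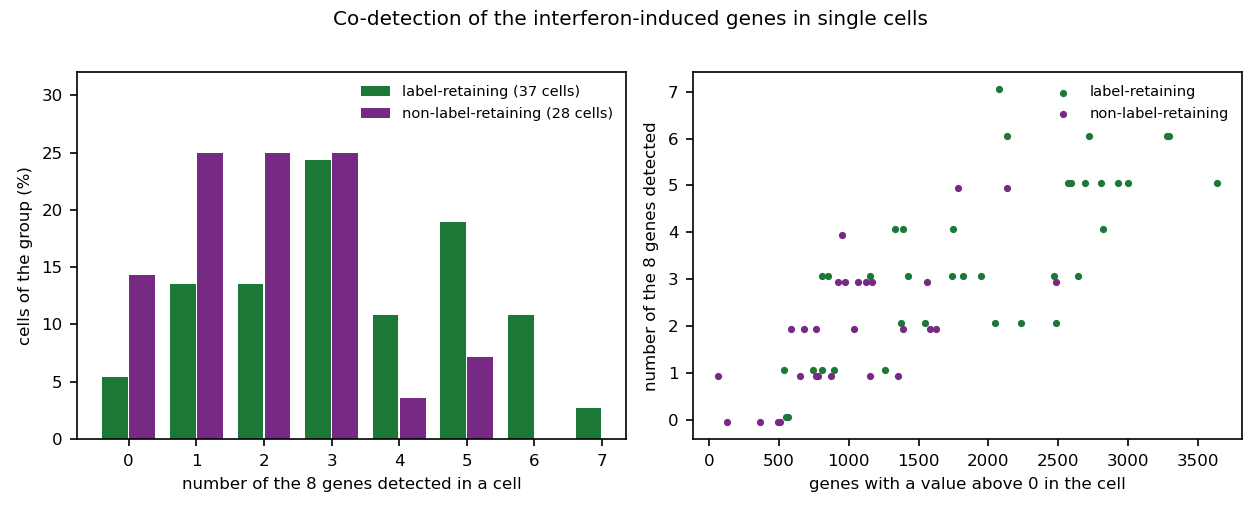
Left, percent of cells of each group (vertical axis) by the number of the 8 genes detected in the cell (horizontal axis), LR green and nLR purple. Right, number of the 8 genes detected against the number of all genes with a value above 0, 1 point per cell: cells with more genes held more of the 8, and 5 LR and 0 nLR cells held 6 or more.

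Pairs of the genes met in the same cells to different degrees. Xaf1 and Trim30a were found together in 14 of 37 LR and 0 of 28 nLR cells (10 of 32 and 0 of 25 with 1 cell of each alike set), where nLR cells with Xaf1 numbered 10 and those with Trim30a 5. Igtp and Irf1 were together in 6 LR and 3 nLR cells. That was 9 of the 13 cells with Irf1 and 9 of the 17 with Igtp. As a measure of likeness, the phi coefficient of their detection over the 61 cells with at least 10000 counts was 0.48 (0.57 over the 53 cells left with 1 of each alike set). That was higher than the phi of Igtp with 96.3% of 3382 candidate genes, which leave out genes found in few or in nearly all cells. Gm6548 and Irgm1, found together in 24 cells, had a phi of 0.33, higher than that of Gm6548 with 97.0% of the candidates. Gm6548 counts may hold reads of near-identical loci. Eif2ak2 and Irgm1 had a phi of 0.42, in 13 LR and 5 nLR cells together. For Xaf1 and Trim30a it was 0.131, higher than that of Xaf1 with 48.7% of the candidates. Among the phi values of Trim30a, 0.120 (with Igtp) lay above 27.6% of them and 0.135 (with Eif2ak2) above 31.5%. Of the 21 pairs of the 7 genes, the lowest was Gm6548 with Igtp (-0.22).

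Some low counts of the members lay where the sequencing indices were shared with a very high cell. Irf1, whose counts lay almost wholly in LR cell 17, was detected in 5 of the 10 other cells with the same i5 index, in 1 of 5 with the same i7 index and in 6 of 49 with neither. The first 5 included the 3 nLR cells of repeat 2 with Irf1, each at 2 counts. For Irgm1 and Igtp, highest in the same cell, detection with the same i5 index stood at 7 of 10 and 3 of 10, with neither at 21 of 49 and 11 of 49. These include high values, up to 2031 counts of Irgm1 in a cell with the same i5 index. Low values alone (about 1 to 5 counts) of Irf1 lay in 4 of 10 cells with that index and 5 of 49 with neither. For Irgm1 they lay in 2 of 10 and 17 of 49, and for Igtp in 1 of 10 and 6 of 49. A further 534 genes of the table were taken in which 1 cell had a high value, far above that of every other cell. For these, cells of the same repeat and group showed the gene in 41.4% of cases when they shared the i5 index and in 25.8% when they shared neither. In cells of another repeat or group the values were 25.6% and 13.7%. Whether low counts passed between libraries was not tested beyond these shares.

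The genes most like each member in detection were named by the highest phi over those 61 cells, among 3382 candidates. For Xaf1 they were Cyp2e1 (0.67), Mkln1 (0.64) and Efcc1 (0.59). All 3 of them share a stretch of sequence with a Xaf1 transcript in GENCODE M21, starting at base 861 of the Xaf1 transcript aligned. It was 95.1% identical over 184 aligned bases in Cyp2e1, 85.8% over 190 in Mkln1 and 84.3% over 166 in Efcc1. Such a stretch (at least 75 aligned bases) lies in 35.8% of the 3278 candidates that have transcripts there. Of the 32 Xaf1 values above 0, 53.1% were whole numbers within 0.0001, where the table stood at 65.1%, and the part of this stretch in the Xaf1 values was not tested. Of the genes most like Irgm1, Pld2 (0.60) and Rab3gap1 (0.54) shared a stretch with it and Mrgpre (0.57) did not, where 38.9% of candidates did. None of the 3 genes most like Trim30a (Mrps12 at 0.65, Ppp5c and Pdcd5), Igtp (Ipo11 at 0.70, Pitpnc1 and Sephs2), Irf1 (Timm50 at 0.63, Lgals9 and Med10) or Gm6548 (Htra2 at 0.47, Uspl1 and Napa) did. For Eif2ak2 these were Tmem167 (0.62), Agbl3 and 4930594C11Rik, of which Agbl3 shared a stretch of 349 bases at 74.2% identity.

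Levels were compared on the summed counts of all cells in a repeat, separately for LR and nLR cells. Levels are given as TMM-scaled CPM of each sum, and the test is edgeR's quasi-likelihood test over 2786 genes, of which it called 0 (0%) at an adjusted p of 0.05 (smallest adjusted p 0.326). Unadjusted, 180 genes (6.46%) were higher and 122 (4.38%) lower in LR cells at p under 0.05. The median log2 fold change of all genes was 1.15, and 65.5% of genes lay above 0. All of the members but Irf7 passed the filter on low values. The spread between repeats was large (common dispersion 3.42), which limits what this test can call.

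Trim30a stood at 8.37, 23.7, 194 and 477 CPM in LR repeats 1 to 4 and at 74.1, 7.87, 0 and 2.64 CPM in the nLR repeats. The log2 fold change was 3.03 ± 2.19 (SE, p = 0.166, edgeR adjusted p = 0.546), with the higher level in LR cells in 3 of 4 repeats. Without LR cell 36 it was 1.13, without LR repeat 4 it was 1.53, without nLR repeat 1 it was 5.75 (unadjusted edgeR p = 0.0300, adjusted 0.212), and with 1 cell of each alike set 2.61. Igtp stood at 0.061, 133, 408 and 6.63 CPM in LR and at 0, 31.5, 0 and 0 CPM in nLR repeats, the only member with the higher LR level in 4 of 4 repeats (log2 fold change 4.21 ± 2.41, edgeR adjusted p = 0.476). Of its 8 nLR counts 7.50 lay in repeat 2, and without that repeat the fitted change was 14.1 (unadjusted edgeR p = 0.00717, adjusted 0.397), a value against sums of 0 that gives no size. Without LR repeat 3 it was 2.65. With 1 cell of each alike set its change was 4.96 ± 2.33 (unadjusted edgeR p = 0.0329, adjusted 0.294).

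Irgm1 stood at 18.1, 355, 1.90 and 6.19 CPM in LR and at 5.34, 47.2, 23.0 and 7.91 CPM in nLR repeats. Its log2 fold change of 2.21 ± 2.25 (edgeR adjusted p = 0.638) rested on repeat 2 and was -1.24 without that LR repeat. Irf1 stood at 0.122, 253, 0 and 69.8 CPM in LR and at 0, 23.6, 0 and 7.91 CPM in nLR repeats. Its change was 3.42 ± 2.48 (edgeR adjusted p = 0.546), and 1.27 without LR cell 17, 1.63 without LR repeat 2 and 5.42 without nLR repeat 2.

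Xaf1 and Eif2ak2 had negative changes that were positive under some alternatives. Xaf1 stood at 36.8, 6.08, 171 and 20.8 CPM in LR and at 48.1, 0, 381 and 31.6 CPM in nLR repeats, a log2 fold change of -0.97 ± 2.06 (edgeR adjusted p = 0.809). It was 0.93 when total counts alone set the scale and 1.05 when cells were rescaled to equal totals and tested with limma, and these settings moved the median of all genes to 1.78 and 1.88 and the share of genes above 0 to 76.5% and 84.0%. Relative to the median of all genes Xaf1 lay lower in LR cells under each, at -0.86 and -0.84 on the log2 scale. The TMM factors were 0.29 and 0.22 for nLR repeats 3 and 4, against 1.44 to 2.04 for the other sums. Eif2ak2 stood at 2.37, 194, 9.50 and 113 CPM in LR and at 465, 512, 5.75 and 2.64 CPM in nLR repeats (log2 fold change -1.62 ± 2.05, edgeR adjusted p = 0.696), -1.52 with total counts alone and 0.49 with rescaled cells and limma, which is -1.39 relative to that median. With 1 cell of each alike set Eif2ak2 stood at -2.75 and Xaf1 at -1.44.

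Gm6548 was the member with the largest fold change, and it lay lower in LR cells. Its level was 8.72, 6.35, 3.56 and 10.2 CPM in LR and 1558, 5592, 24.9 and 416 CPM in nLR repeats. That was lower in LR cells in all 4 and without overlap between the groups on this scale. The TMM factors of 0.29 and 0.22 raise the values of all genes in nLR repeats 3 and 4. How many of all genes lay without such overlap was not counted. In plain CPM of the sums, without TMM factors, Gm6548 stood at 16.9, 9.95, 4.73 and 13.5 in LR repeats. In nLR repeats it stood at 2261, 7286, 7.13 and 89.7, so repeat 3 of nLR cells then lay within the LR range. As a mean of single cells it was 4.49 CPM in LR and 3.52 CPM in nLR cells of repeat 3. The log2 fold change was -8.04 ± 3.05 (unadjusted edgeR p = 0.00839, adjusted 0.326), at percentile 0.646 of all genes tested. DESeq2, which called 14 genes (0.503%), had Gm6548 among them (adjusted p = 5.72e-05), and edgeR did not call it under any setting tried. The change was -7.02 without nLR cell 11, -7.74 without nLR cell 7 and -8.72 with 1 cell of each alike set. Most of the nLR counts lay in few cells: cell 7 held 90.8% of repeat 1, cell 11 held 85.7% of repeat 2 and cell 28, with 150 counts and 0 of Eif2ak2, held 94.9% of repeat 4.

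Reads counted as Gm6548 may come from several loci, which are not separated in the counts. RefSeq places Gm6548 (identifier 625054), a transcribed pseudogene, on chromosome 17 from 78850504 to 78852544, wholly inside the annotated span of Eif2ak2. GENCODE M21 ends Eif2ak2 at 78852564 and places Gm6548 from 78850792 to 78851956, 607 bases away, both on the minus strand. GENCODE lists it as a processed pseudogene, and its transcript of 1165 bases was 96.7% identical over 1166 aligned positions to the mRNA of Eef1a1, which encodes a translation elongation factor, on chromosome 9 from 78478449 to 78489151. A stretch of 60 bases from each, with the 2 differing bases in capitals, is printed to show how few letters tell them apart (GENCODE M21 transcripts, Gm6548 from its base 1 and Eef1a1 from its base 343, both on the minus strand).
Gm6548: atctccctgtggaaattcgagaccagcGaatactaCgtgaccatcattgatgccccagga
Eef1a1: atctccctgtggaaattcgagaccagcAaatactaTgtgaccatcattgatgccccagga

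Of the 40 Gm6548 values above 0, 35.0% were whole numbers within 0.0001, the smallest share among the 8 genes, where Irf1 had 92.3%. GENCODE also lists other pseudogenes as close, such as Gm13456 (96.2% over 1167 positions). No row for Eef1a1 was found among the deposited identifiers, so its own counts could not be looked at. Of the pseudogenes as close, Gm6170 and Gm9512 had rows and were at 0 in all 65 cells. Across the 65 cells Gm6548 and Eif2ak2 had a Spearman correlation of 0.38, and 18 of the 24 cells with Eif2ak2 also had Gm6548. LR cell 14 held 3454 counts of Eif2ak2 with 6.00 of Gm6548, and nLR cell 28 held 150 of Gm6548 with 0 of Eif2ak2, so neither value fixed the other. The share of Gm6548 counts that belongs to Eif2ak2 or to Eef1a1 was not tested. Of the other members, Igtp shared 175 bases at 97.1% identity with Irgm2 and Trim30a 75 bases at 97.3% with Trim12a.

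**Figure D4:**
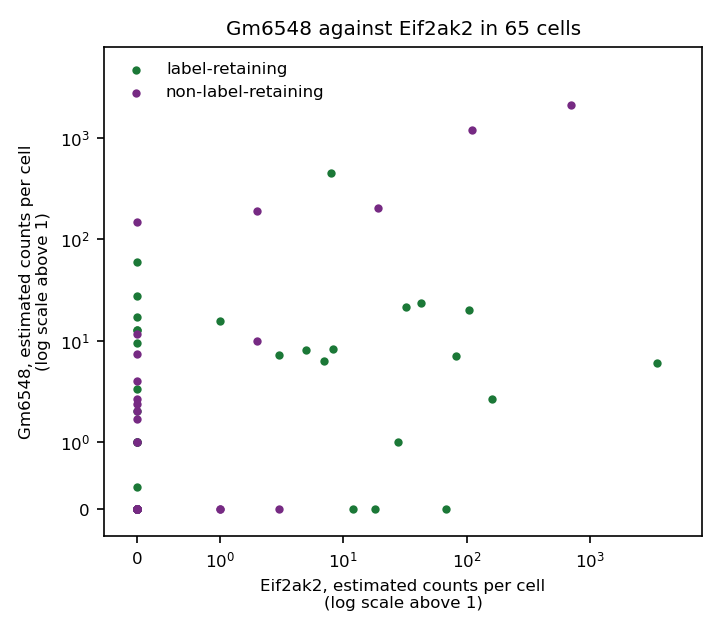
Estimated counts of Gm6548 (vertical axis) against those of Eif2ak2 (horizontal axis) in each of the 65 cells, log scales above 1, LR green and nLR purple. The nLR cells 7 and 11 lie highest for Gm6548, at 2119 and 1218 counts, and the cell highest for Eif2ak2, at 3454 counts, held 6.00 counts of Gm6548.

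**Figure D5:**
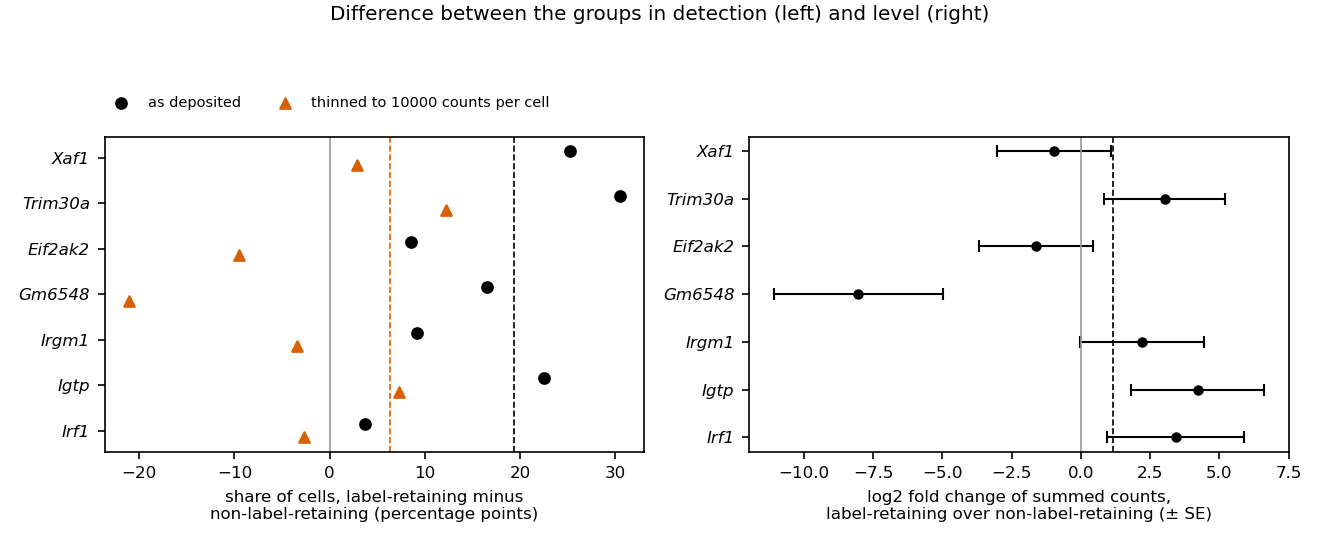
Left, difference in the share of cells that detected each gene (LR minus nLR, percentage points), as deposited (black) and thinned to 10000 counts per cell (orange), with dashed lines at the medians of all genes (19.4 and 6.32 points). Right, log2 fold change ± SE of the summed counts (LR over nLR), with a dashed line at the median of all genes (1.15): Gm6548, at -8.04, lies apart from the other 6, which run from -1.62 to 4.21.

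Around the members, 153 other genes of the interferon pathway were listed by role, of which 68 were in the table and 54 had a value in any cell. Of 9 ligand genes listed only 3 were in the table, Ifng, Ifnl2 and Ifnl3, and these had 0 counts in all 65 cells. None of them is a type I interferon gene, so transcripts of type I interferons could not be looked for. The receptor gene Ifngr1, the only 1 of 6 listed that was in the table, was detected in 26 of 37 LR and 13 of 28 nLR cells. Of the signal transducers, Stat2 was detected in 9 and 1 cells and Stat3 in 23 and 4. Among the other IRF genes Irf3, which starts the response downstream of nucleic acid sensors, was detected in 18 and 4 cells.

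Of 34 of these genes tested for detection, 30 had the higher share in LR cells and 2 (5.88%) were past an unadjusted p of 0.05, beside 8.48% of all genes. Stat3 was among these (exact permutation p = 0.0286, adjusted 0.337). The median difference was 18.5 points, close to the 19.4 points of all genes. In the test of level, 29 of them had a median log2 fold change of 0.80, with 20 above 0, and edgeR called 0 (2 were higher and 1 lower by the unadjusted p). Eif2ak1, the heme-regulated relative of Eif2ak2, was 1 of the 2 higher ones (16 and 3 cells, log2 fold change 5.89 ± 2.72, unadjusted edgeR p = 0.0305, adjusted 0.429). The other was Cd74 (6.12 ± 2.67, edgeR adjusted p = 0.408), found in 8 and 6 cells and highest in LR cell 16, and the lower one was Ifi27 (-6.66 ± 2.57, edgeR adjusted p = 0.326).

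Several genes that interferon induces strongly were scarce, and the rarer ones are named here after their values were seen. Usp18, the feedback inhibitor of the type I receptor, Cmpk2, Dhx58 and the GTPase gene Ifi47 were at 0 in all 65 cells. Rsad2, an antiviral enzyme gene, was detected in 4 and 3 cells, Isg20 in 4 and 0, and the GTPase gene Iigp1 in 3 and 3. Among other GTPase genes of the family of Irgm1 and Igtp, Irgm2 was detected in 6 and 3 cells and Tgtp1 in 9 and 2. Relatives of Trim30a were found more widely, with Trim12c in 32 and 15 cells, Trim12a in 32 and 21 and Trim30b in 12 and 5. As these lie close together and resemble each other, their counts are uncertain. The interferon-inducible Ifitm2 and Ifitm3 were detected in 25 and 7 and in 17 and 6 cells, with log2 fold changes of 2.60 ± 2.18 and 2.51 ± 2.13 (edgeR adjusted p = 0.579 and 0.582).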

How the data were processed

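Single-cell libraries were made with SMART-Seq v4, which keeps no strand and has no molecular identifiers, and Nextera XT, per the labels' protocols. The authors deposited 1 table of values for all 65 cells. The submitters' processing notes name mm10 and DESeq, and no label or header used here names an aligner or counter. The deposited values were read as estimated counts, since their totals per cell differ widely and 65.1% are whole within 0.0001. Of 18036 identifiers 16216 were matched to a symbol, and the others held 0.130% of counts. The 8 genes, the pathway and marker lists and the tests were chosen with earlier results of these data known. Named beside the 8 are listed pathway genes and, for each of 7, the 3 genes with the highest phi. Some listed pathway genes are counted but not reported by name here.

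Detection (value above 0) was compared by repeat with a two-sided exact permutation test (70 arrangements) for genes found in at least 10 cells, with Benjamini-Hochberg adjustment (scipy 1.17.1, Python 3.11.15). For levels, estimated counts were summed by repeat and group, rounded and tested with edgeR 4.0.16 (R 4.3.3; TMM, robust quasi-likelihood, genes in at least 10 cells with a mean of at least 10). Scripts were tested on simulated data. DESeq2 1.42.0 and limma 3.58.1 (log2 scale) gave alternatives, as did other thresholds, thinning, filters and leaving out repeats or cells. Sequences were aligned with blastn 2.17.0. The exact permutation p-values reflect the spread between 4 repeats. Those of edgeR rest mainly on a spread between repeats shared across genes, not on that of each gene alone. The SE of an edgeR log2 fold change was computed back from the change and its test statistic. The limit given for a gene at 0 is 3 cells of the total and covers counting error only. Same-numbered repeats of the groups deviated together from their group means (r = 0.55, 0.30, 0.17 and 0.15), so the numbers were taken to pair the sums. Sums of unlike number had r of -0.26 to 0.14, so the pairing of repeats 3 and 4 is weakly borne out. Repeat 1 holds the alike LR cell 3 and nLR cell 3. The main tests leave the pairing out, and the blocked fit is an alternative.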

Additional observations from a re-analysis of the deposited data

Results flagged for a closer look

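Of 28 sets of 4 repeat values of the 7 genes that were tested, 6 held a repeat far from the other 3 by Dixon's test. That test flags about 1 in 20 sets by chance only where values are normally distributed. Here levels often rest on single cells and shares on few cells, so 6 of 28 is not shown to exceed chance. For Igtp in nLR level and Irgm1 in nLR detection the other 3 repeats were equal, so any differing value would be flagged. In level, Irgm1 stood at 355 CPM in LR repeat 2, where the other LR repeats lay between 1.90 and 18.1 CPM. Among nLR repeats, Xaf1 stood at 381 CPM in repeat 3 (others 0 to 48.1 CPM), Trim30a at 74.1 CPM in repeat 1 (others 0 to 7.87 CPM) and Igtp at 31.5 CPM in repeat 2 (others 0). In detection, Irgm1 was found in 20.0% of the cells of nLR repeat 4 (50.0% in each of the others), and Irf1 in 75.0% of the cells of nLR repeat 2 (others up to 10%).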

How the results depend on the processing

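With edgeR the level test called 0 genes under each alternative, leaving out repeats included (0 to 0), while DESeq2 called 14. Higher detection at an unadjusted p under 0.05 was seen for 161 genes after thinning, 189 without cells of under 10000 counts and 165 to 360 without 1 repeat, 165 without nLR repeat 4, and lower detection for 4, 1 and 0 to 2. With 1 cell of each alike set, an alternative chosen after seeing the data, it was lower for 1. With the replicate block, by which same-numbered repeats are paired, detection was higher for 0 genes, since its smallest possible p is 0.125. The block changed the call of none of the 7 genes, and Gm6548 stood at a log2 fold change of -6.40 (unadjusted p = 0.0335, edgeR adjusted p = 0.594).

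The log2 fold change kept its direction in all but 6 of 175 alternatives. It was positive for Xaf1 with total counts (0.93), without the filter on low counts (0.36), with rescaled cells (1.05) and without nLR repeat 3 (1.09; -2.44 to 1.09 over repeats left out), and for Eif2ak2 with rescaled cells (0.49). For Irgm1 it was -1.24 without LR repeat 2 (-1.24 to 2.64). The difference in detection kept its direction in 88 of 98. After thinning it was -9.56 points for Eif2ak2, -21.1 for Gm6548, -3.40 for Irgm1 and -2.65 for Irf1. It was -0.764 for Gm6548 at 10 or more counts, -3.13 for Irf1 without cells of under 10000 counts, and -3.33 to 21.7 for Irf1 over repeats left out. Over repeats left out it was 13.9 to 41.7 for Xaf1, 24.4 to 36.9 for Trim30a, 0.278 to 21.9 for Eif2ak2, 6.06 to 29.4 for Gm6548, 1.67 to 13.1 for Irgm1 and 17.5 to 34.2 for Igtp. The difference in genes detected per cell was 0.964 to 1.55 without 1 repeat and -0.143 after thinning. The cause of these changes was not tested. Detection is limited by depth and by the number of genes a library holds.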
